A study of Rattus norvegicus with 210 samples.

Results

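The comparison described here set the mediobasal hypothalamus (MBH) of adult female rats whose mothers had received ketoconazole (KTZ) against that of rats whose mothers had received the vehicle, at postnatal day (PND) 90. Its members were the 10 libraries of the MBH count table whose column names end in -K12-P90 (5 rats) or -C-P90 (5 rats), of 210 libraries in the series. All 10 came from female Sprague-Dawley rats. The mothers were given corn oil (control) or KTZ in corn oil at 12 mg/kg bw/day (K12) by gavage, starting on gestational day 7, pausing for the birth itself and ending at PND22. The pups were therefore exposed through the mother, and had received no KTZ for the weeks between weaning and dissection. The labels give no litter, so p-values measure the spread between rats and not between dams. Polyadenylated RNA was sequenced, and the values are raw read counts per gene. The controls held 16919455 to 22416287 counts per library and the K12 libraries 16366492 to 19585751. Levels are given as counts per 1000000 counts of the library (CPM), and differences as log2 fold changes of K12 against control with their standard error (SE).

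The MBH holds the arcuate and ventromedial nuclei, the median eminence and the tanycytes that line the third ventricle. Kisspeptin neurons of the arcuate nucleus drive the pulsatile release of gonadotropin-releasing hormone (GnRH), and neighbouring neurons that make POMC or AgRP regulate feeding. KTZ is an imidazole antifungal that blocks cytochrome P450 enzymes, among them CYP51 of sterol synthesis and enzymes of steroid hormone synthesis. Oligodendrocytes of the rat hypothalamus are still being formed at weaning. Precursors pass through a short-lived committed stage marked by the receptor Gpr17, and then wrap axons with myelin. The study asked whether the exposure before puberty left a trace in the adult hypothalamus.

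The region and the age on the labels were checked before any difference was read. Genes of the mammillary nuclei, which lie in an MBH block and not in a preoptic (POA) block, gave a mean log2(CPM + 0.5) of 2.31 to 2.75 in the 5 controls and 2.28 to 2.80 in the 5 K12 libraries. In POA controls at PND90 the same score was -0.36 to 0.04, so all 10 libraries had the mammillary level of the labelled region. An age profile was then taken from POA controls, as the mean log2(CPM + 0.5) of the 100 genes with the largest rise from PND22 to PND90 minus that of the 100 with the largest fall. MBH controls scored -1.0 to -0.77 at PND22 and 0.25 to 0.81 at PND42. The K12 libraries at PND90 scored 1.33, 1.42, 1.61, 1.44 and 1.49, within or just below the 1.39 to 1.76 of POA controls at PND90. The 5 MBH libraries labelled control at PND90 scored -0.85, -0.97, -0.70, -1.12 and -0.88.

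**Figure D1:**
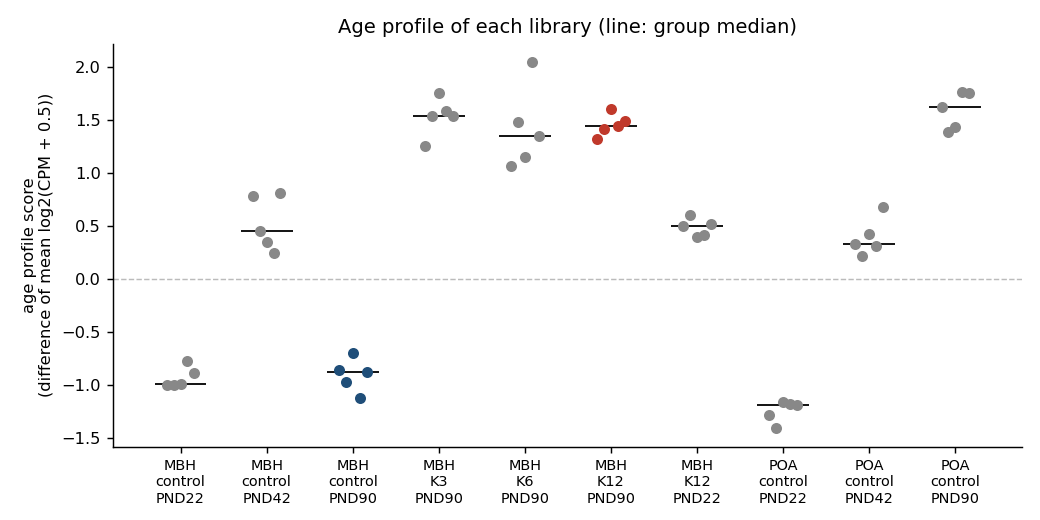
Age profile score of each library (vertical axis, difference of mean log2(CPM + 0.5) between genes that rise and genes that fall with age in POA controls), by region, group and age, with a line at the median of 5 libraries. The MBH controls at PND90, in blue, lie between -1.12 and -0.70, at the height of the MBH controls at PND22, and the K12 libraries at PND90, in red, lie between 1.33 and 1.61.

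The libraries labelled control at PND90 thus carried the age profile of PND22 libraries, in 5 of 5 rats. The POA libraries that carry the same 5 rat numbers scored 1.39 to 1.76. Between the MBH controls of PND90 and those of PND22, 10 of 14745 genes passed the test (0.0678%; adjusted p under 0.05 by edgeR's quasi-likelihood test, as for every call here, and 2189 at an unadjusted p under 0.05). In POA controls the same interval of age gave 3922 of 14351 genes (27.3%, of which 15.5% rose and 11.8% fell), or 3448 of 14474 (23.8%) without the 1 POA control at PND22 whose mammillary score, 2.70, was that of an MBH library. With the profile rebuilt without that library, 5 of 5 MBH controls at PND90 were still below 0 and 5 of 5 K12 libraries above it. Exposure and age profile run together across the 10 libraries, and in K12 against control at PND90 they cannot be told apart. The labels were kept as given, and whether libraries were exchanged between groups was not tested. Other groups also held libraries that stood apart from their labels. All 5 libraries labelled POA K12 at PND90 and 4 of 5 labelled POA K6 at PND90 had mammillary scores of MBH blocks, and all 5 labelled MBH K6 at PND42 had those of POA blocks. For most gene groups below, the difference between PND90 and PND22 in POA controls, which shares no library with K12 against control, is given beside the result. It includes the POA control of high mammillary score unless stated otherwise.

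Of 14596 genes tested, 4537 (31.1%) passed the test between K12 and control, of which 2135 (14.6%) were higher and 2402 (16.5%) lower in K12. Most differences were small. A log2 fold change below 1 in size was found for 1947 of the higher and 2023 of the lower genes, and one above 2 for 30 and 71. The CPM of the groups did not overlap for 3050 genes (20.9%), 1292 of them higher in K12. Across 14226 genes tested in both, the log2 fold changes of K12 against control and those of POA controls from PND22 to PND90 had a Pearson correlation of 0.70. This correlation is across genes, which are not independent replicates, and the POA controls at PND90 carry the rat numbers of the MBH controls. Genes called in both comparisons numbered 2292, which is 51.5% of the first list and 58.6% of the second among the genes tested in both, and 2287 of them had the same sign. Without the POA library of high mammillary score the correlation was 0.69.

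**Figure D2:**
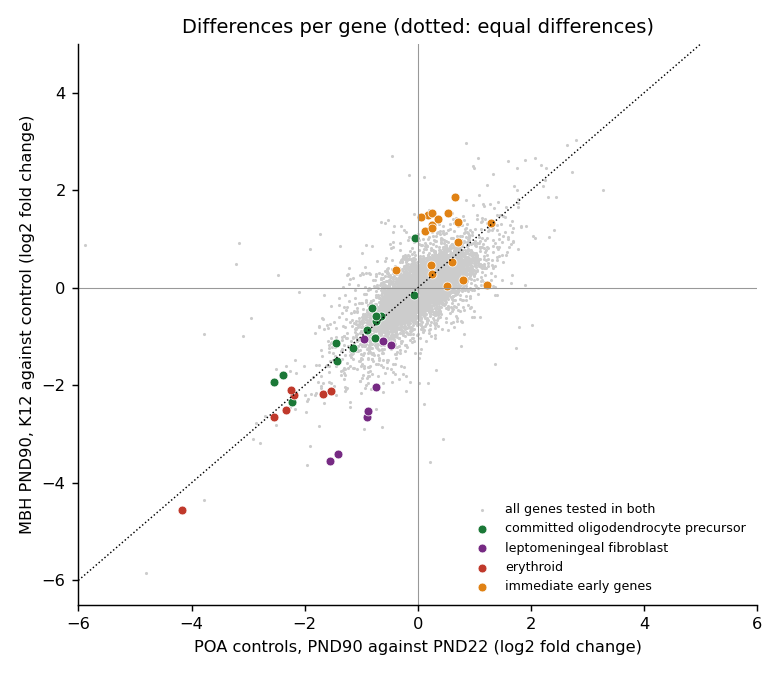
Log2 fold change of each gene in the MBH at PND90, K12 against control (vertical axis), against that in POA controls, PND90 against PND22 (horizontal axis), with 4 gene groups in colour. Committed oligodendrocyte precursor and erythroid genes lie near the line of equal differences, leptomeningeal genes lie below it, and most immediate early genes lie above it.

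The oligodendrocyte lineage held some of the clearest differences. Genes of committed precursors were lower in K12 for 12 of 14 members tested and higher for 0, with a median log2 fold change of -0.94. Gpr17, the receptor that marks this stage, had levels of 136, 115, 135, 106 and 122 CPM in the controls and 21.5, 26.0, 23.0, 24.4 and 24.8 CPM in K12. The groups were well apart, and the log2 fold change was -2.34 (SE 0.08, adjusted p = 9.9e-10). Enpp6, an enzyme of newly formed oligodendrocytes, fell by 1.79 on the log2 scale, the morphogen Bmp4 fell by 1.93, and Sirt2, a deacetylase of myelinating cells, fell by 1.24. The groups overlapped for Bmp4, which ranged from 0.688 to 11.6 CPM in K12. In POA controls Gpr17 fell by 2.22 from PND22 to PND90 and Sirt2 by 1.15, and 11 members were called lower. Earlier precursors showed smaller differences, with 10 of 11 members lower and a median of -0.43. Pdgfra, the growth factor receptor that defines them, fell by 0.65 (SE 0.06).

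Genes of myelinating oligodendrocytes went both ways, with 8 of 26 higher and 12 lower. Qdpr, which recycles tetrahydrobiopterin and is abundant in mature oligodendrocytes, stood at 105 to 120 CPM in the controls and at 353, 366, 427, 369 and 414 CPM in K12. Its log2 fold change was 1.82 (SE 0.07, adjusted p = 1.4e-09), and 1.78 in POA controls with age. Ndrg1 rose by 1.34, Anln by 1.21 and Hapln2, a link protein of the node of Ranvier, by 1.04. Ugt8, which makes the myelin lipid galactocerebroside, fell by 1.59 and the adhesion protein Mag by 0.96. Mbp had a log2 fold change of -0.38 (adjusted p = 0.045) with overlapping groups, and lost its call under 9 of the alternatives. The genes that rose and those that fell in K12 did so with age in the POA controls as well for Ndrg1 (1.32), Ugt8 (-1.80) and Mag (-1.09).

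**Figure D3:**
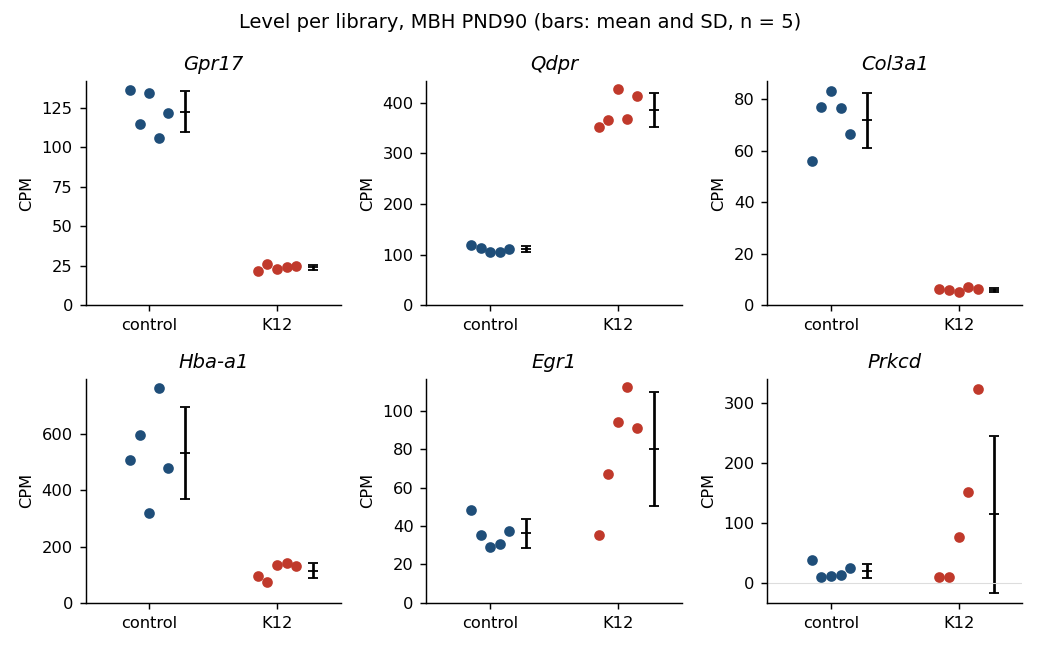
Level of 6 genes in each library (vertical axes, CPM, each from 0 or below) in MBH controls and K12 at PND90, with the mean and SD of 5 libraries beside the points. Gpr17, Col3a1 and Hba-a1 are lower and Qdpr higher in every K12 library than in any control, whereas for Egr1 1 K12 library lies among the controls and for Prkcd 2 K12 libraries lie within or below the control range.

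Collagens and other genes of the leptomeninges, the membranes that cover the brain, were lower in K12 for 9 of 9 members, with a median log2 fold change of -2.03. Col3a1 stood at 56.0, 77.0, 83.2, 76.5 and 66.6 CPM in the controls and at 6.22, 5.73, 5.10, 7.21 and 6.13 CPM in K12. Every K12 library lay far below every control, for a log2 fold change of -3.54 (SE 0.11, adjusted p = 5.6e-10). Col1a1 fell by 3.42, Igf2, a growth factor of meninges and choroid plexus, by 2.53, and the small proteoglycan Lum by 2.03. In POA controls 1 member, Pdgfrb, was called lower with age, and the values there were -1.55 for Col3a1 (adjusted p = 0.073) and -0.87 for Igf2 (adjusted p = 0.28). Summed over the list, the controls held 383 to 549 CPM and K12 64.7 to 119 CPM. Several of the largest decreases lay outside the list. Elastin (Eln) fell by 3.25, Col6a1 by 2.83, Col26a1 by 3.64 and Col20a1 by 3.10. Tbx18, a transcription factor of mural and meningeal cells, fell by 2.85, and the organic anion transporter Slc22a6 by 3.58, where the POA controls gave 0.22 (adjusted p = 0.88). The amount of leptomeninges left on each tissue block was not measured, and its part in these differences was not tested. In bulk tissue, fewer cells of a type and less RNA per cell cannot be told apart.

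Vessel genes showed a smaller difference, with 7 of 11 lower and 2 higher in K12. The pericyte channel Kcnj8 lay between 5.97 and 7.27 CPM in the controls and between 1.52 and 2.35 CPM in K12 (log2 fold change -1.65, SE 0.14). The endothelial receptor Kdr fell by 0.84 and Flt1 rose by 0.44. Erythroid genes were lower for 7 of 7 members (median -2.19), as they were for 7 of 7 in POA controls with age (median -2.24). Hba-a1, an alpha globin, stood at 508, 597, 318, 761 and 477 CPM in the controls and at 95.7, 75.2, 133, 140 and 130 CPM in K12. The anion exchanger of red cells, Slc4a1, fell by 4.55, and Alas2, which starts heme synthesis in red cell precursors, by 2.66. Globin copies are near identical, so their reads may be split between them. The gene with the largest decrease among those named was Alox15, a lipoxygenase, with 50.01, 43.6, 27.7, 85.5 and 36.3 CPM in the controls and 0.791, 0.630, 1.52, 0.794 and 0.408 CPM in K12. Its log2 fold change was -5.85 (SE 0.36, adjusted p = 2.0e-07), beside -4.80 in POA controls with age.

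Genes of dividing cells were lower for 10 of 17 members and higher for 1, Pcna. Mki67 fell by 1.83 and the topoisomerase Top2a by 2.20, from 3.45 to 4.73 CPM in the controls to 0.401 to 1.41 CPM in K12. The POA controls gave -1.86 and -1.99 for the same genes with age. Astrocyte genes were higher for 6 of 15 and lower for 0, and in POA controls 11 were higher with age. S100b rose by 0.91 and Gfap, the intermediate filament of astrocytes, by 0.57, beside 1.0 and 0.89 in POA controls. Microglial genes were higher for 5 of 13, led by the lipid receptor Trem2 (0.56), and lower for 1, the lysosomal Cd68 (-1.09). In POA controls 7 microglial genes were higher with age, or 3 without the POA library of high mammillary score. The microglial count was 3 higher without control replicate 2 or 3 or K12 replicate 2 or 3, and 1 in both fits that held more groups. The complement component C3 rose from 2.64 to 6.57 CPM in the controls to 19.1 to 32.1 CPM in K12, and the interferon-induced Ifit3 from 0.274 to 0.883 CPM to 2.09 to 6.57 CPM, with no overlap for either. In POA controls with age C3 rose by 2.72 and Ifit3 by 2.64. Genes of cytosolic ribosomal proteins were higher for 57 of 73 members (median 0.38), against 61 in POA controls with age (median 0.67), and nuclear-encoded respiratory chain genes for 25 of 75, against 57 in POA controls.

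**Figure D4:**
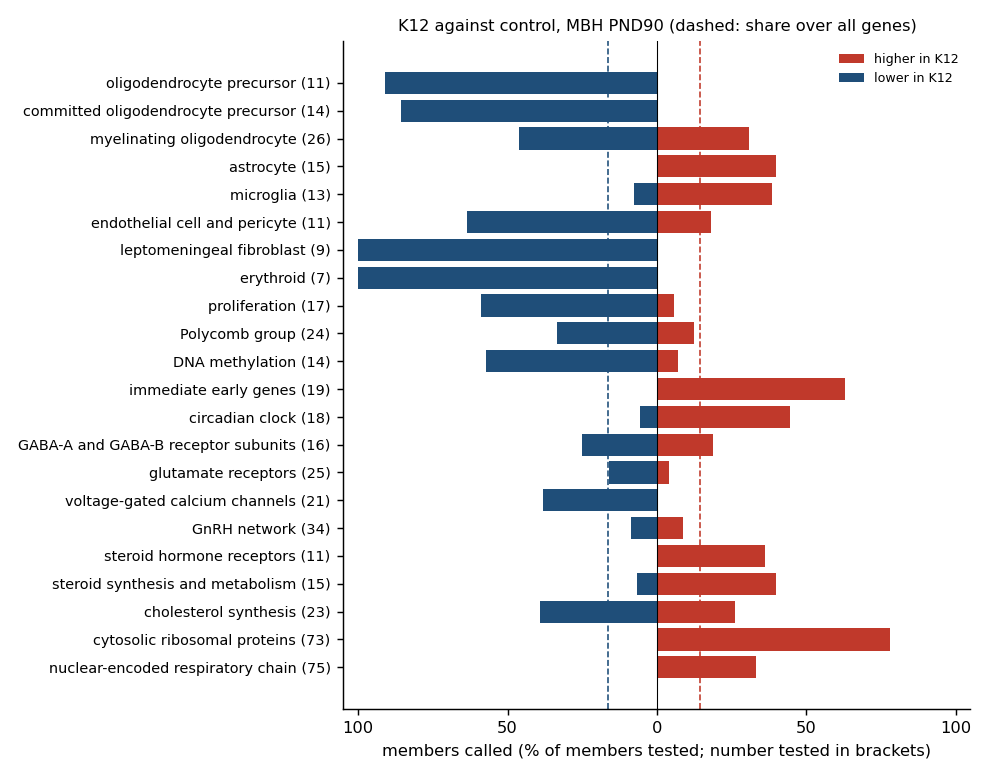
Members of each gene list called higher (right, red) or lower (left, blue) in K12 than in control in the MBH at PND90, in percent of the members tested (numbers in brackets), with dashed lines at the shares over all genes, 14.6% and 16.5%. The bars for committed precursors, leptomeningeal, erythroid and DNA methylation genes extend left beyond the line, and those for immediate early and ribosomal protein genes extend right.

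Among regulators of chromatin more members were lower than higher in K12, beside 16.5% lower and 14.6% higher over all genes tested. In the DNA methylation list 8 of 14 members were lower and 1 higher. Dnmt3a, which sets new methyl marks, stood at 36.5 to 48.7 CPM in the controls and at 17.0 to 22.8 CPM in K12 (log2 fold change -1.04, SE 0.09, adjusted p = 4.7e-06), and the demethylases Tet1 and Tet3 fell by 0.94 and 0.85. Polycomb genes, which silence developmental genes and have been tied to the timing of puberty, were lower for 8 of 24 and higher for 3. In both lists the share higher was below that over all genes. In POA controls with age 5 Polycomb genes were higher and 7 lower. The methyltransferase Ezh2 fell by 1.03, whereas its paralog Ezh1 rose by 0.64 and the reader Cbx7 by 0.71. The POA controls gave -1.0 for Dnmt3a, -0.88 for Ezh2, 0.47 for Ezh1 and 0.85 for Cbx7 with age. Against MBH controls at PND42, K12 differed in 1 member of the DNA methylation list, Tdg (-0.35).

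Immediate early genes, which neurons switch on within minutes of activity, were higher in K12 for 12 of 19 members and lower for 0, with a median of 1.23. In POA controls 2 members, Ier2 and Ier5, rose with age, and the median was 0.36. Egr1 stood at 48.1, 35.2, 29.0, 30.7 and 37.5 CPM in the controls and at 35.3, 66.8, 94.0, 112 and 90.8 CPM in K12. K12 replicate 1 lay within the control range and the other 4 above it, for a log2 fold change of 1.16 (SE 0.24, adjusted p = 0.0030). Fos was also lowest in K12 replicate 1, but replicate 2 lay above replicate 3. It stood at 11.5 to 23.4 CPM in the controls and at 16.8, 46.1, 44.1, 63.4 and 53.7 CPM in K12, for a log2 fold change of 1.30 (adjusted p = 0.0032). Nr4a1 rose by 1.44, Npas4 by 1.53, the phosphatase Dusp1 by 1.53, the antiproliferative Btg2 by 1.41 and Ier2 by 1.32. Arc, Jun and Egr2 were not called. With K12 replicates 3, 4 and 5 left out, 2 of 20 members were called higher, with a median of 0.50, and Egr1 gave 0.51 (adjusted p = 0.13). That fit held only 2 K12 libraries, and genes not called in it are not shown to be equal. Against MBH controls at PND42, 3 members were higher in K12, Junb (1.55), Nr4a1 (1.77) and Btg2 (1.34). The time between removal from the cage and freezing is not given for each rat, and its part was not tested.

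Promoters of this list are shown because 12 of its 19 members tested were called higher. Entries in RefSeq (build GRCr8) were found for 14 of the 20 list members, and the cyclic AMP response element TGACGTCA, which reads the same on both strands, was searched in the 250 bases before each start site. It was present in 3 of the 14, and in 531 of all 33469 promoters searched (1.59%). The 14 were counted by the first entry of each gene and the 33469 by every entry, so the shares differ in unit. Fos and Jun were among the members without an entry. A match to these letters is a description and not a measured site. The 60 bases around each match are given 5′ to 3′ on the strand of the gene, with the element in capitals, for Ier2 (chr19:40399281-40399340, plus strand), Dusp1 (chr10:17184703-17184762, plus strand) and Btg2 (chr13:48087858-48087917, minus strand).
Ier2: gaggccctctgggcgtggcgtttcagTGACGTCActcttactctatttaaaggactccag
Dusp1: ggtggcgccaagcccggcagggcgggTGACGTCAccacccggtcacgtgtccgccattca
Btg2: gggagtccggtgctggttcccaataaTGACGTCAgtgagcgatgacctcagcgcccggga
Dusp1 stood at 13.2 to 23.3 CPM in the controls and at 16.8, 26.8, 61.4, 70.4 and 71.0 CPM in K12, and Btg2 at 9.76 to 14.01 CPM and at 13.9, 19.2, 46.9, 41.4 and 35.0 CPM. For both genes K12 replicate 1 lay within the control range and replicates 3, 4 and 5 lay highest.

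Thalamic marker genes separated the same 3 K12 libraries from the other 2. Prkcd, a kinase of thalamic relay neurons, stood at 39.0, 10.5, 12.2, 14.4 and 25.8 CPM in the controls and at 11.1, 9.97, 76.8, 151 and 323 CPM in K12, and Ptpn3 at 13.8, 12.3, 67.5, 130 and 240 CPM in K12. Of the thalamus list 3 of 11 members were called higher and 0 lower. That count was 0 without control replicate 2, 3 or 4 or K12 replicate 5, 6 without K12 replicate 1 or 2, and 1 with a replicate block. In POA controls 1 member was higher with age. The summed level of the list was 815 to 1118 CPM in the controls and 809 to 1884 CPM in K12. Among the 15 largest increases Prkcd, the GABA-A receptor subunit Gabrd (2.59), Shox2 (2.67) and Mybpc1 (3.46) were highest in K12 replicates 3, 4 and 5. Their calls were lost when K12 replicate 5 was left out. Without control replicate 2, 3 or 4 the calls of Prkcd, Ptpn3, Gabrd and Shox2 were lost as well, and without control replicate 5 or K12 replicate 4 those of Gabrd and Shox2. The call of Shox2 was also lost without K12 replicate 3. The neuropeptide Vip, of the suprachiasmatic nucleus and other regions, rose by 2.45 with its highest values, 24.0 and 35.5 CPM, in K12 replicates 4 and 5, and gave 0.66 (adjusted p = 0.19) without replicates 3 to 5. Pituitary hormone genes varied in another way. Cga, the subunit shared by the glycoprotein hormones, reached 188 CPM in K12 replicate 1 against 12.8 to 44.2 CPM in the other 4 and 0.0552 to 21.3 CPM in the controls, and Tshb rose by 3.61. Without that library Cga gave 1.84 (adjusted p = 0.062). The defining genes Prl, Gh1 and Pou1f1 were too low to be tested. With K12 replicates 3, 4 and 5 left out, 2555 of 15058 genes (17%) were called between the other 2 K12 libraries and the controls, 1198 (7.96%) higher and 1357 (9.01%) lower. In that fit 12 of 14 committed precursor genes, 8 of 9 leptomeningeal genes and 7 of 7 erythroid genes were lower. Of 20 immediate early genes 2 were higher, a share near that over all genes, and of 18 clock genes 3. A fit with 2 K12 libraries detects less, and the libraries left out were chosen on these data. Genes not called in it are not shown to be equal in those 2 libraries and the controls.

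The other named genes with large differences belong to no list of cells. Thrsp, a regulator of fat synthesis, stood at 3.12 to 4.73 CPM in the controls and at 13.5 to 26.6 CPM in K12 (log2 fold change 2.52, SE 0.18), beside 2.18 in POA controls with age. Mfrp rose by 2.96 with no overlap between the groups, and the POA controls gave 0.85 (adjusted p = 0.48). Apold1, an early response gene of vessels, and the matrix protein Ccn1 rose by 2.66 and 2.47, and for both K12 replicate 1 lay within the control range or beside it. Sec14l4 (2.70) and the peptide gene Nmu (2.63) were highest in K12 replicate 1, at 14.5 and 13.2 CPM. The lipase Pnlip fell from 40.6 to 52.1 CPM in the controls to 4.89 to 8.17 CPM in K12 (-2.76, SE 0.12), beside -2.86 in POA controls with age. The DNA sensor Aim2 fell by 3.18.

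Among hypothalamic peptides, Avp and Pomc were higher in K12 and Agrp was lower. Avp, the antidiuretic hormone, stood at 11.4, 20.4, 51.0, 12.6 and 50.1 CPM in the controls and at 52.7, 110, 120, 138 and 79.2 CPM in K12, for a log2 fold change of 1.80 (SE 0.40, adjusted p = 0.0043). Oxt, made beside it in the supraoptic and paraventricular nuclei, gave 1.29 (adjusted p = 0.12). Avp is also on the suprachiasmatic list, where 3 of 6 members were higher (2 with a replicate block) and 0 lower. Over all genes 14.6% were higher. Summed with Avp included, that list held 38.0 to 76.7 CPM in the controls and 87.7 to 198 CPM in K12. MBH controls at PND42 held 128 to 212 CPM. The part of the tissue dissected was not tested. Pomc, the precursor of the satiety signal alpha-MSH, stood at 26.3, 36.4, 46.6, 24.6 and 26.5 CPM in the controls and at 74.4, 85.5, 74.1, 53.6 and 54.2 CPM in K12 (1.11, SE 0.18, adjusted p = 0.00045). The groups did not overlap for Pomc or Avp, with the nearest Avp libraries at 51.0 and 52.7 CPM. With K12 replicates 3, 4 and 5 left out, Avp gave 1.499 (adjusted p = 0.051) and Agrp -0.34 (adjusted p = 0.22), and Pomc kept its call (1.34). Cartpt, which Pomc neurons also make, rose by 0.52. Agrp, which opposes Pomc, fell by 0.83 (SE 0.24, adjusted p = 0.020) with overlapping groups. In POA controls with age Avp gave 0.86 (adjusted p = 0.28), Pomc -1.73 (adjusted p = 0.20) and Agrp -1.59 (adjusted p = 0.20). These POA values include the PND22 library with the mammillary score of an MBH block. Without it, 4 of 12 arcuate genes were higher with age (median 0.53), against 2 with it (median -0.07). The call of Agrp was lost without control replicate 2 or K12 replicate 3. In the rest of the arcuate list of 12 members 9 were not called. Melanin-concentrating hormone (Pmch) rose by 0.48 and Hdc, which makes histamine, fell by 0.63.

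Npw, which encodes the peptide neuropeptide W, was nearly absent from K12. It stood at 2.99, 4.98, 2.70, 2.25 and 2.79 CPM in the controls and at 0.0565, 0.0573, 0.235, 0.0611 and 0.102 CPM in K12, where 1 to 4 reads were counted per library. The fitted log2 fold change was -4.84 (SE 0.38, adjusted p = 1.5e-06). MBH controls differed by 0.15 between PND90 and PND22, but both groups had the age profile of PND22. That value therefore cannot show whether Npw changes with age. At PND22, in other rats, K12 against control gave -5.09. Npw was too low to be tested in POA controls.

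The GnRH network list gave 3 higher and 3 lower members of 34, a smaller share than over all genes. Mkrn3, a brake on puberty whose loss causes precocious puberty in humans, stood at 4.24, 2.49, 3.48, 2.54 and 3.50 CPM in the controls and at 1.19, 1.43, 1.35, 1.22 and 1.02 CPM in K12 (log2 fold change -1.37, SE 0.20, adjusted p = 0.00022). In POA controls it fell by 1.29 with age. Igsf10 and Sema3a, which guide migrating GnRH neurons, fell by 0.49 and 0.52, whereas the kisspeptin receptor Kiss1r rose by 0.57 and Sema7a by 0.61. For these 4 genes the groups overlapped, and each lost its call under 1 or more alternatives, Sema7a without control replicate 3, Kiss1r without control replicate 2 or 5 or K12 replicate 3, and Sema3a without any 1 of 6 libraries. In POA controls 5 members of the list were higher and 2 lower with age. Kiss1 gave 1.05 (adjusted p = 0.074) and ranged from 0.974 to 5.93 CPM in K12. Gnrh1 lay between 0.328 and 1.43 CPM in all 10 libraries, and a difference was not detectable at this depth (0.06, SE 0.40). Of the genes that the study listed as GnRH regulators 16 of 62 were higher and 20 lower. That list was chosen on these samples and is not independent evidence.

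Receptors and channels for fast transmitters showed few large differences. Over all genes tested, 14.6% were higher and 16.5% lower in K12. GABA receptor subunits were higher for 3 of 16, near the share over all genes, and lower for 4, beside 2 and 3 in POA controls with age. Leaving out K12 replicate 1 or 2 gave 5 higher, and leaving out control replicate 1, 3 or 4 or K12 replicate 1, 3 or 5 gave 2 lower. Gabre lay at 45.8 to 65.3 CPM in the controls and at 19.8 to 31.8 CPM in K12 (log2 fold change -1.09, SE 0.13), and fell by 1.08 in POA controls. Among 25 glutamate receptors 4 were lower and 1, the metabotropic Grm3 of glia and neurons, was higher (0.88, SE 0.09). The share lower was near that over all genes and the share higher was below it. In POA controls 6 were lower (8 without the POA library of high mammillary score) and 1 higher, and Grm3 gave 0.89. Voltage-gated calcium channel genes were lower for 8 of 21 and higher for 0, with Cacna1h, a T-type channel, at -0.41 and Cacna1d at -0.35. In POA controls 7 calcium channel genes fell with age, or 9 without the POA library of high mammillary score.

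For the counts that follow, the shares over all genes tested were 14.6% higher and 16.5% lower in K12. Steroid receptors were higher for 4 of 11 and lower for 0 (1 lower without control replicate 2). In POA controls 5 were higher with age, or 3 without the POA library of high mammillary score. The estrogen receptor Esr1 gave 0.26 (adjusted p = 0.28). Of the genes of steroid synthesis and metabolism 6 of 15 were higher, against 7 in POA controls with age, with the mitochondrial cholesterol-binding protein Tspo and the brain cholesterol hydroxylase Cyp46a1 at 0.64 each. Akr1c14, which reduces dihydroprogesterone to the neurosteroid allopregnanolone, fell by 1.62 (SE 0.20). In POA controls Akr1c14 gave -0.61 (adjusted p = 0.20). Cholesterol synthesis genes divided into 6 higher and 9 lower of 23, and into 1 higher and 11 lower in POA controls with age. The number lower was 4 without K12 replicate 2 and 5 in the edgeR fit of 7 groups. Dhcr7 fell by 0.43 and Cyp51, the direct target of azoles, by 0.22, beside 0.64 and 0.47 in POA controls. Clock genes were higher for 8 of 18, with Ciart at 0.80 and Dbp at 0.50, and Per3 alone fell (0.46 on the log2 scale). In POA controls with age 8 clock genes were higher, or 6 without the POA library of high mammillary score. Sgk1, a target of glucocorticoid and mineralocorticoid receptors, rose from 32.5 to 43.6 CPM in the controls to 63.9, 120, 65.6, 135 and 202 CPM in K12 (1.69, SE 0.27), while Fkbp5, another glucocorticoid target, was not called. In POA controls Sgk1 rose by 1.17. Targets of PPAR, which govern the use of fat, were higher for 9 of 23, led by Pdk4 (1.28), against 7 in POA controls, where Pdk4 rose by 1.63.

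Doses were compared directly, since K12, K6 and K3 do not share libraries. Between K12 and K3 1 of 14473 genes passed the test (0.00691%, 1870 at an unadjusted p under 0.05), and between K12 and K6 0 of 14456 by edgeR and by DESeq2 (760 at an unadjusted p under 0.05). The gene was Slc6a3, the dopamine transporter, with 33.8, 51.0, 68.4, 34.0 and 19.1 CPM in K12 and 6.15 to 12.6 CPM in K3 (log2 fold change 2.29, SE 0.30, adjusted p = 0.044). Its controls ranged from 5.41 to 133 CPM, so that K12 and control overlapped (adjusted p = 0.55). DESeq2 called 70 genes between K12 and K3. The age profile scores of K3, 1.25 to 1.75, and of K6, 1.06 to 2.05, covered the range of K12.

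At PND22, the end of exposure, K12 was compared with control in other rats. There 5529 of 14817 genes passed the test (37.3%, and 18.2% were higher in K12). The K12 libraries at PND22 had age profile scores of 0.40 to 0.61, within the range of MBH controls at PND42, and their controls -1.0 to -0.77, so exposure and age profile run together at this age too. Of the thalamus list of 11 members 9 were higher and 0 lower in K12 at PND22, with Prkcd at 4.56 and Gabrd at 4.87. The part of thalamic tissue in the PND22 and interaction values was not tested. The difference between K12 and control differed between PND90 and PND22 for 517 of 15133 genes (3.42%), higher at PND90 for 207 and lower for 310. Gpr17 fell at both ages, by 1.24 at PND22 and by more at PND90 (interaction -1.10, adjusted p = 2.8e-05). Of the 26 myelinating oligodendrocyte genes tested at PND90, 19 were higher and 0 lower in K12 at PND22, against 8 and 12 at PND90. Their interaction was called lower for 15 and higher for 1. Leptomeningeal Col3a1 gave -0.62 at PND22 (adjusted p = 0.20), with an interaction of -2.92 (adjusted p = 0.0016). Esr1 was lower at PND22 (-1.01) and Pomc gave -0.53 (adjusted p = 0.068), with interactions of 1.27 and 1.63. For Dnmt3a, Cbx7, Ndrg1, Mkrn3 and Npw the interaction did not pass the test.

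**Figure D5:**
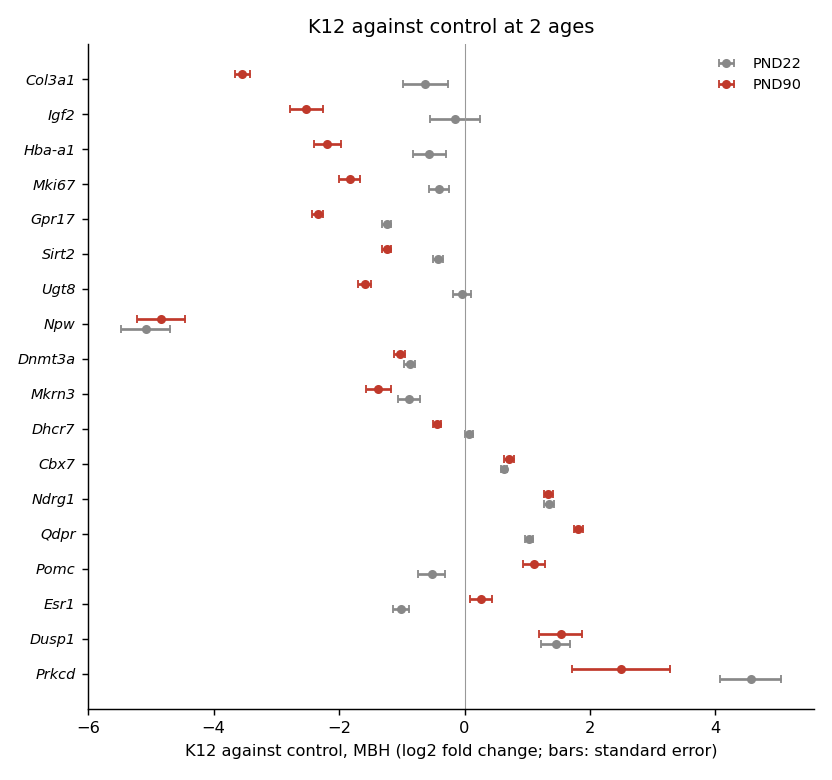
Log2 fold change of K12 against control in the MBH (horizontal axis, bars are standard errors) of 18 genes at PND22, in grey, and at PND90, in red, with 5 libraries per group at each age. Col3a1 lies at -3.54 at PND90 and -0.62 at PND22, Pomc and Esr1 lie on opposite sides of 0, and Dnmt3a, Cbx7, Ndrg1 and Npw lie close together.

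Because the controls of PND90 had the age profile of PND22, K12 was also set against MBH controls at PND42, which scored highest among MBH controls. There 191 of 14674 genes passed the test (1.3%), 58 higher (0.395%) and 133 lower (0.906%) in K12. Of the leptomeningeal list 6 members were lower, Col3a1 by 2.59 and Igf2 by 2.05, and of the erythroid list 7. Gpr17 fell by 0.72, Ugt8 by 1.17 and Alox15 by 2.69, and Qdpr rose by 1.07. Dnmt3a (-0.09), Mkrn3 (-0.21), Gabre (-0.22) and Avp (-0.17) had adjusted p of 0.82, 0.66, 0.50 and 0.81. In this comparison K12 is the older group by its labels, and exposure and age cannot be told apart here either. Finally, the difference between K12 and control was compared with the age difference of POA controls in one fit. It differed for 24 of 14996 genes (0.16%, 2112 at an unadjusted p under 0.05), 16 with a higher and 8 with a lower value in the MBH. That fit carried the spread of both regions and held the POA control of high mammillary score. Genes not called in it are not shown to have equal differences. The ribosomal protein genes Rplp1 and Rps28 rose less (-0.75 and -0.90), and the membrane protein Myadm fell less (0.41). Col3a1 differed by -1.96 (SE 0.67, adjusted p = 0.19) and Slc22a6 by -3.78 (SE 1.13, adjusted p = 0.13), and neither was called.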

How the data were processed

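The series holds 210 libraries (5 per group), made with a stranded TruSeq kit from hypothalamic blocks of females of 3 ages and sequenced on a NovaSeq. The authors converted reads with bcl2fastq 2.20, aligned them with STAR to Rnor_6.0 in the nf-core pipeline and counted them per Ensembl gene with featureCounts. The deposited values are raw counts, with no normalization. The counting strand and the treatment of reads with several matches are not given in the sources used here, so paralogs and overlapping genes are uncertain.

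For each comparison edgeR 4.0.16, run under R 4.3.3, fitted the counts of the groups compared (quasi-likelihood, TMM factors, filterByExpr with a minimum count of 10), with Benjamini-Hochberg adjustment over all genes and calls at an adjusted p of 0.05. The SE was derived from the quasi-likelihood F as the size of the log2 fold change over its root. CPM used library totals. DESeq2 1.42.0, which the study used, was an alternative. Libraries of 1 group differed by more than counting noise (chi-square per degree of freedom of 5.9 to 19.4), so none was a duplicate. The script was tested on simulated counts.

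Genes were named by a rule: the 15 largest positive and 15 largest negative differences among called genes with mean log2 CPM of at least 1 and no clone name, the genes of the study's own tables, and up to 4 called members per direction of each list with the members a list is known for. A copy of 7SK, a multicopy RNA, is described with the results for a closer look. Anln, Kdr, Flt1 and the other list members are given from the list tables. The comparison, the lists and the tests were chosen with earlier results of these data known. The age contrasts of controls, K12 against MBH controls at PND42 and PND22, and the fit that sets the MBH difference against the POA age difference were added after seeing the data. The authors' own fold changes were not used. Every per-sample column used was mapped to a sample. Some genes are not reported here.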

Additional observations from a re-analysis of the deposited data

Results flagged for a closer look

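In 13 of the gene values named here 1 library of a group of 5 stood far from the other 4 by Dixon's test, which by chance alone picks out about 1 in 20 of the 184 groups tested. K12 replicate 1 had 188 CPM of the pituitary gene Cga against 12.8 to 44.2 CPM in the other K12 libraries, and 13.2 CPM of Nmu against 0.672 to 4.05 CPM. K12 replicate 3 had 11.4 CPM of Enpp6 and 0.235 CPM of Npw, and K12 replicate 4 had 1.04 CPM of Tbx18. Control replicate 1 had 9.23 CPM of Apold1, 38.9 CPM of Enpp6 and 37.5 CPM of Grm3. Control replicate 2 had 115 CPM of Eln, 850 CPM of Gfap and 4.98 CPM of Npw, and control replicate 4 had 5.61 CPM of Tbx18. Control replicate 3 had 27.1 CPM of a copy of the RNA 7SK (ENSRNOG00000058555) against 0.657 to 1.02 CPM in the other controls. Its log2 fold change was -3.10, and -0.33 without that library.

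The difference between K12 and control was itself different at PND90 and at PND22 for 517 genes by the edgeR interaction test. Values below are the difference at PND90 minus that at PND22 on the log2 scale. Among vessel, leptomeningeal and matrix genes they were -2.92 for Col3a1, -2.78 for Col1a1, -2.30 for Eln, -1.60 for Col20a1, -2.55 for Tbx18, -1.97 for Col6a1, -2.49 for Slc6a13, -3.54 for Slc22a6, -2.38 for Igf2, -1.92 for Igfbp2 and -1.23 for Kcnj8. Blood, immune and lipid genes gave -3.07 for Alox15, -3.03 for Slc4a1, -1.78 for Alas2, -1.63 for Hba-a1, -1.92 for Hbb, -2.08 for Aim2, -1.48 for Pnlip and 3.05 for Sec14l4. In the oligodendrocyte lineage they were -1.10 for Gpr17, -1.08 for Enpp6, -0.82 for Sirt2, -1.05 for Matn4, -0.93 for Mag, -1.01 for Mbp, -1.55 for Ugt8 and 0.79 for Qdpr. Dividing cell genes gave -1.43 for Mki67 and -1.54 for Top2a. Receptor, peptide and sterol genes gave 0.66 for Gabre, 1.27 for Esr1, 1.63 for Pomc, -0.50 for Dhcr7, -1.79 for Akr1c14 and -3.80 for Slc6a3. The MBH controls of PND90 and the K12 libraries of PND22 both had age profiles of another age than their labels, and the part of age in these values was not tested. Thalamic marker genes were higher in K12 at PND22 for 9 of 11 members, and their part was not tested either.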

How the results depend on the processing

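The count of genes called between K12 and control (4537) stayed within 1.5 times under DESeq2 (4925), RLE factors (4551), no filter (4351), fits with more groups (3782 and 3910) and without any single library (3939 to 4287). It was 191 against MBH controls at PND42, 5588 against MBH controls at PND22, 24 after the POA age difference was taken off and 2555 without K12 replicates 3 to 5, alternatives chosen after seeing the data. For Col3a1 the SE was 0.67 in the fit that took off the POA age difference and 0.11 in the main fit. Genes not called there are not shown to have equal differences. Replicate numbers did not pair the samples (same-number correlations -0.22, 0.12, -0.03, 0.16 and 0.14; 1 of 5 controls correlated best with its own number), and a replicate block gave 4340. K12 against K3 gave 70 genes by DESeq2, 2 with a replicate block and 0 to 289 without single libraries, 289 without K3 replicate 5. The interaction gave 976 genes by DESeq2. K12 against control at PND22 gave 4390 to 5802 without single libraries, and K12 against K6 gave 0 throughout. Of 87 named genes that were called, 71 kept their call under the alternatives other than those chosen after seeing the data. Without K12 replicate 5 the calls of Prkcd, Ptpn3, Gabrd, Shox2 and Mybpc1 were lost (adjusted p of 0.090, 0.079, 0.11, 0.14 and 0.056). The value for Gnrh1, not called, ranged from -0.26 to 0.23 without single libraries. Depth limits genes below about 1 CPM.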

Other observations

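Tanycytes, the glia that line the third ventricle, and neighbouring cell types gave a few further differences in K12 against control. Over all genes tested, 14.6% were higher and 16.5% lower. Tanycyte genes were higher for 4 of 10 members and lower for 1, with the transcription factor Rax at 1.14 and Fndc3c1 at 1.34. The MBH controls of PND90 and PND22 differed by 2 tanycyte genes, both lower at PND90, but both groups had the age profile of PND22. That comparison cannot show how tanycyte genes change with age. Ependymal genes were lower for 4 of 9 members, but for 1 without control replicate 2, 3 or 4 or K12 replicate 5, for 2 without K12 replicate 1, and for 1 in both fits that held more groups, with Hydin, a protein of motile cilia, at -0.48. Choroid plexus genes were higher for 1 of 7 (2 without control replicate 3) and lower for 2, and the channel Kcnj13 fell by 2.88. Of the striatal markers 3 of 9 were higher, with Ppp1r1b at 0.73, though the list median was -0.14, and of the cortical markers 1 of 6 was lower. Genes of the ventromedial nucleus were lower for 1 of 8, Bdnf (-0.45), and for 2 without control replicate 1 or 5 or K12 replicate 1 or 2. In the main fit the cortical and ventromedial shares lower and the choroid plexus share higher were near or below those over all genes. Insulin-like growth factor genes were lower for 5 of 14 and higher for 2, with Igfbp2 at -1.68 and Igfbp5 at 0.73. In POA controls with age 1 tanycyte gene was higher and 1 lower, 0 ependymal genes were called, and Igfbp2 gave 0.32 (adjusted p = 0.72).

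At PND90 the libraries labelled POA K12, which carry the same rat numbers as the MBH K12 libraries, had mammillary scores of 2.28 to 2.57 and age profile scores of -1.10 to -0.70. Of the libraries labelled POA K6 at PND90, 4 of 5 had mammillary scores of 2.07 to 2.36 and age profile scores of -0.93 to -0.85. The 5 libraries labelled MBH K6 at PND42 had mammillary scores of -0.24 to -0.13. In the MBH at PND90, 5 of 5 D3 and 5 of 5 D6 libraries (diethylstilbestrol) had age profile scores below 0, as had 2 of 5 D12 libraries.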
